A study of Mus musculus with 6 samples.

Results

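The Hox genes of the 4 mouse clusters were examined in RNA from embryo heads at embryonic day 8.5. Every gene of the series table whose symbol is Hoxa, Hoxb, Hoxc or Hoxd followed by a paralog number was taken, which gave 39 of 24062 genes. HoxA held 11 of them, HoxB 10, HoxC 9 and HoxD 9. The study compared C57BL/6 embryos by their copies of Prdm15 tm1a, an allele of the gene for the zinc finger protein PRDM15 (tm1a is the usual name for a knockout-first gene-trap allele). Its title names forebrain development and Otx2 as the subject. The groups were wild type (Prdm15 tm1a+/+), heterozygous (Prdm15 tm1a+/-) and mutant (Prdm15 tm1a-/-), with 2 polyadenylated RNA libraries each. The labels name no tissue-specific Cre line and no treatment. The labels do not say whether a library came from 1 head or from several, nor from which litter, so p-values measure only the spread between these 6 libraries.

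Hox genes encode homeodomain transcription factors that give cells along the head-to-tail axis their regional identity. Genes at the 3′ end of each cluster (low paralog numbers) are switched on earlier and reach further forward than genes at the 5′ end (high paralog numbers). In the neural tube, groups 1 to 4 have their front limits in the hindbrain, groups 5 to 13 lie behind it, and forebrain and midbrain express no Hox gene. Retinoic acid, FGF and Wnt signals and the Cdx factors turn the clusters on, Polycomb proteins keep them silent, and Pbx, Meis and Pknox proteins bind DNA together with Hox proteins. Groups 1 to 4 are called anterior below and groups 5 to 13 posterior.

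The clusters lie on chromosome 6 from 52155590 to 52260880 (HoxA, minus strand), chromosome 11 from 96194316 to 96368256 (HoxB, plus strand), chromosome 15 from 102921103 to 103036852 (HoxC, plus strand) and chromosome 2 from 74668310 to 74765142 (HoxD, plus strand), in GENCODE's annotation of the GRCm38 (mm10) build. RefSeq's table of gene starts (GRCm38.p6) matched 22 of the 39 members. The 250 bases before the start are printed for 4 members whose rise in mutants is described below (Hoxb4, Hoxb8, Hoxb1, Hoxd1) and for Hoxa2, whose mutant libraries were the lower ones. Capitals mark matches, on either strand, to AGGTCA (the half-site bound by retinoic acid receptors), TTTATNG (the Cdx motif) or TGATNNAT (the joint Pbx and Hox motif).
Hoxb4, chr11:96318017-96318266, plus strand: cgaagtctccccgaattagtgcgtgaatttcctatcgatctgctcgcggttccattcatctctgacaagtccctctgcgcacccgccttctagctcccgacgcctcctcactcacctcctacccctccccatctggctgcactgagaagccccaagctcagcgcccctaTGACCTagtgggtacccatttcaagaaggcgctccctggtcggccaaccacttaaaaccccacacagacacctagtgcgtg
Hoxb8, chr11:96281655-96281904, plus strand: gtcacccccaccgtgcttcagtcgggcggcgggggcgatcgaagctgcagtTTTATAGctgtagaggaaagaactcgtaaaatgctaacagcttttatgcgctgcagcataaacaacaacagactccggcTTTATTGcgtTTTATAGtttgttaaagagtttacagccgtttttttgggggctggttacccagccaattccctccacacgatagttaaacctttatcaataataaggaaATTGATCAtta
Hoxb1, chr11:96365508-96365757, plus strand: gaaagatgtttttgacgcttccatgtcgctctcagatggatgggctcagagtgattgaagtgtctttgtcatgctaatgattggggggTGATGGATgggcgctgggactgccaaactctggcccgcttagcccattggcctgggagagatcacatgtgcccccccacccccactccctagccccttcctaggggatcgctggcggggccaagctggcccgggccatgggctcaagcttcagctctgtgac
Hoxd1, chr2:74762730-74762979, plus strand: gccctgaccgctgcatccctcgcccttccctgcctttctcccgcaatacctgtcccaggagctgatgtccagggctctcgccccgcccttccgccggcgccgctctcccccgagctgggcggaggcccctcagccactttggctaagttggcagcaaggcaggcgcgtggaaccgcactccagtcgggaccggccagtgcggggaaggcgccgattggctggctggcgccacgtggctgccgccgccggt
Hoxa2, chr6:52164832-52165081, minus strand: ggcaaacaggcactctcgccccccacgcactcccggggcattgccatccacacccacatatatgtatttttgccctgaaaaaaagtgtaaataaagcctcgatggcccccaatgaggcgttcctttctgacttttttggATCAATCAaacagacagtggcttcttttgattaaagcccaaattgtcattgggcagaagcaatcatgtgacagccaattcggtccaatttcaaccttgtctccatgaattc
The Hoxb4 window holds 1 AGGTCA match, read on the opposite strand. The Hoxb8 window holds 3 matches to TTTATNG and 1 to TGATNNAT, the Hoxb1 and Hoxa2 windows hold 1 match each to TGATNNAT, and none of these letters occur in the Hoxd1 window. Over the 24 windows of the matched members, AGGTCA occurred in 6, TTTATNG in 2 and TGATNNAT in 4. Of 32851 windows of all genes, 14% held AGGTCA, 9.81% TTTATNG and 7.68% TGATNNAT. A match is a string of letters and not a shown binding site. The Hox windows held a median of 12.5 CpG dinucleotides against 6 over all windows.

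Hox exons overlap one another and neighbouring transcripts. By the annotation, 9 members share exon bases with another gene on the same strand, and 4 of those with another member, as Hoxd3 and Hoxd4 do. A further overlap is with genes on the opposite strand, for 10 members. Hoxb3os, an antisense transcript, covers 52.9% of the exon bases of Hoxb3 and 27.3% of those of Hoxb2, and Hoxa11os covers 35.0% of those of Hoxa11. The libraries were stranded, and use of the strand in counting is not given here, so that values of Hoxa11, Hoxb2, Hoxb3, Hoxd3 and Hoxd4, and of other members with such overlaps, are uncertain to that extent.

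Total counts ran from 29412227 to 40439234 reads a library, of which 2861 to 10602 fell in Hox genes. Wild-type replicate 2 and mutant replicate 1 were listed with count files bearing each other's titles. Files were assigned by title, under which 0 genes differed from the deposited RPKM columns in being at 0, against 1646 in each of these libraries when files were taken as attached. Prdm15 was read at 26.5 to 35.1 CPM (counts scaled to library size) in every library and did not pass the test in mutants (log2 fold change -0.21, SE 0.12, adjusted p = 0.221). A count over the whole gene does not show which exons the reads cover, so it does not check the genotype labels, and the groups are named here as labelled. For Otx2, which marks forebrain and midbrain, wild-type libraries had 109 and 86.1 CPM, heterozygous 75.4 and 71.9, and mutant 42.5 and 24.9. It fell by 1.53 on the log2 scale in mutants (SE 0.25, adjusted p = 0.00964).

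The heads differed in more than Hox genes, and these measured facts stand beside every result below. Of all tested genes 17.1% rose and 13.6% fell in mutants, against which the counts of each list are to be read. Summed CPM of 14 yolk sac endoderm genes, none at 0 over all libraries, was 161 and 173 in wild-type, 3047 and 2202 in heterozygous and 5485 and 4577 in mutant libraries, and 14 of 14 rose in mutants. Of 14 tested heart genes 12 rose (sums of 246 and 74.3 in wild-type against 2125 and 1215 in mutant libraries), as did 5 of 6 extraembryonic mesoderm genes (219 and 258 against 868 and 634) and 4 of 6 lateral plate genes (50.5 and 85.5 against 214 and 211). Of 10 tested somite genes 4 rose and 2 fell (131 and 81.4 against 142 and 243). Of 12 neural progenitor genes 10 fell (1032 and 1029 against 555 and 609), as did 10 of 12 forebrain and midbrain genes (431 and 326 against 141 and 78.7). Of 7 erythroid genes 1 fell (168 and 249 against 31.0 and 12.3), a share of 14.3% that is near that of all tested genes. Hand1, Tbx4 and Tbx5 each stand on 2 of these lists, and no listed gene was at 0 in every library. Their part in the Hox results was not tested. In such bulk samples more cells of a type and more RNA per cell cannot be told apart.

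In both wild-type libraries most Hox expression came from the 3′ end of the clusters, with Hoxb2 the highest member at 14.2 and 8.41 RPKM. RPKM, reads scaled to gene length and library depth, is a level that can be compared between genes. The 39 genes summed to 57.8 RPKM in wild-type replicate 1 and 39.4 in wild-type replicate 2. The libraries differed in the rest: 97.0% of that sum was anterior in wild-type replicate 1 and 67.9% in wild-type replicate 2. The posterior 32.1% of wild-type replicate 2 came mainly from Hoxa10 at 3.83, Hoxa11 at 3.62 and Hoxd10 at 1.69 RPKM, described below. In wild-type replicate 1, 8 genes exceeded 1 RPKM, and 6 did in wild-type replicate 2. Hoxb13, Hoxc11, Hoxc12 and Hoxd12 had 0 reads in every library, which allows up to 0.102 CPM each at the shallowest depth, from a limit of 3 reads that covers counting error only.

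**Figure D1:**
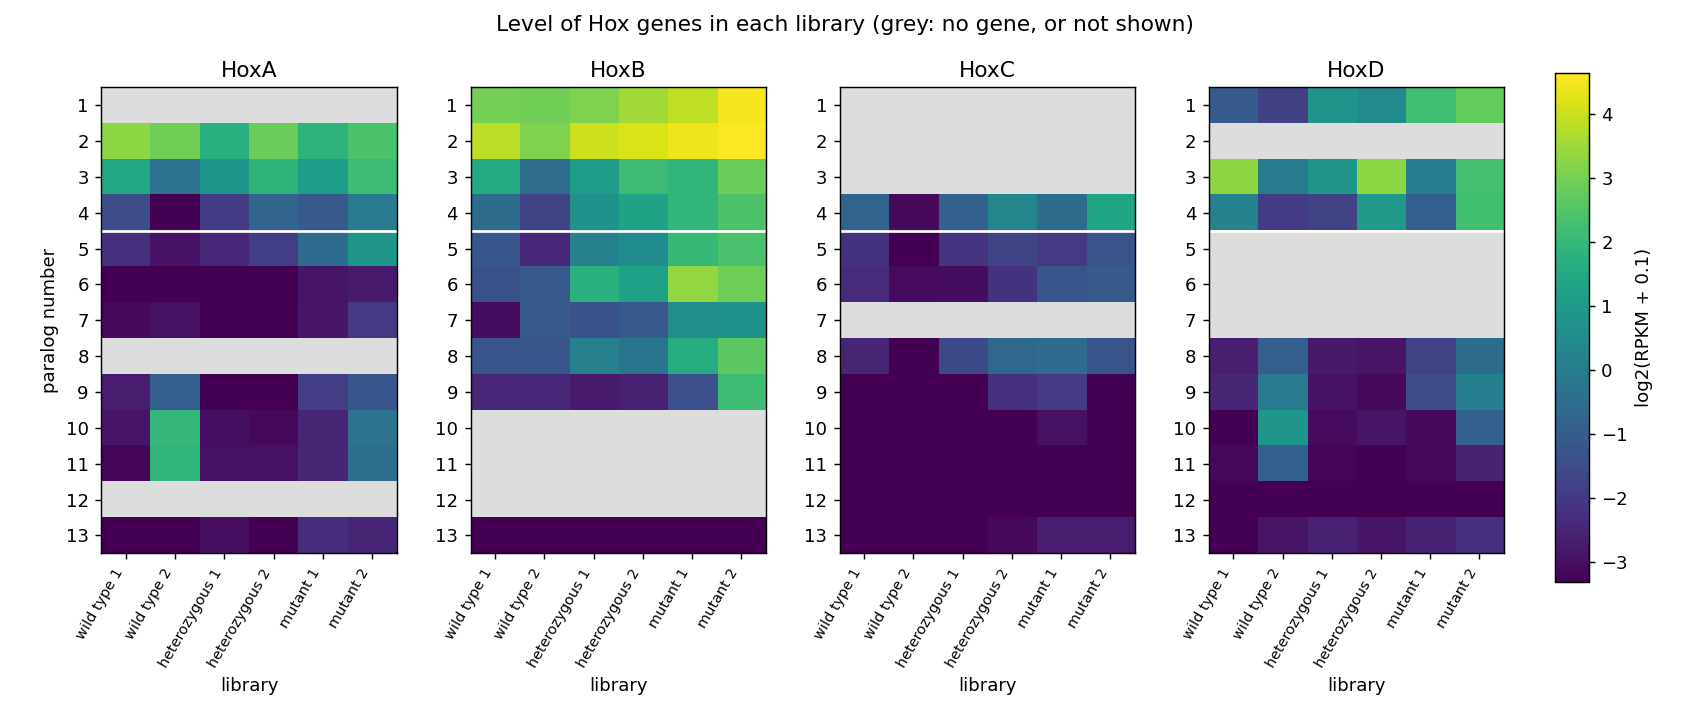
Level of Hox genes in each library as log2(RPKM + 0.1), 1 panel a cluster, with paralog numbers from the 3′ end at the top and a white line between groups 4 and 5; grey marks positions with no gene or not shown. The rows of Hoxb1 and Hoxb2 are bright in every library, the middle of HoxB brightens from wild-type to mutant libraries, and Hoxa10 and Hoxa11 are bright in wild-type replicate 2.

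Across genotypes, the Hox sum was 67.1 and 79.6 RPKM in heterozygous and 97.1 and 163 in mutant libraries, above the wild-type values, with no overlap between genotypes. The parts of the sum differed in how they ranked the libraries. Groups 5 to 8 summed to 1.47 and 1.67 RPKM in wild-type, 6.19 and 5.81 in heterozygous and 20.3 and 23.3 in mutant libraries, so that libraries of 1 genotype lay close together. The anterior sum was 56.0 and 26.8, then 60.6 and 73.5, then 75.4 and 132. Groups 9 to 13 summed to 0.284 and 11, then 0.247 and 0.328, then 1.32 and 7.79, and differed more within wild type and within mutants than between them. No test was made of these sums.

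**Figure D2:**
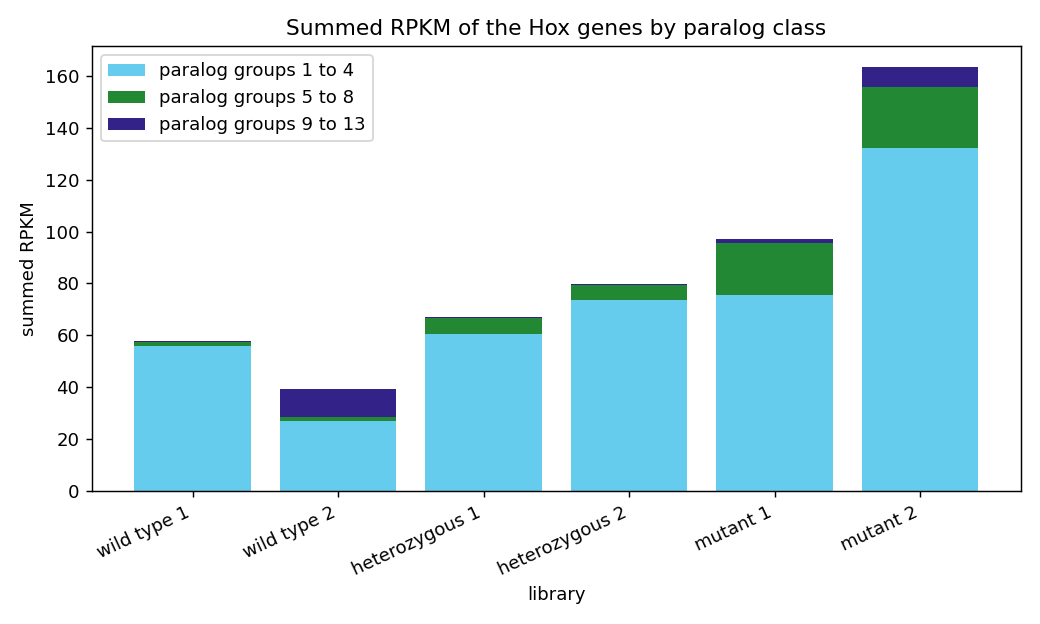
Summed RPKM of the 39 Hox genes in each of the 6 libraries, stacked by paralog groups 1 to 4, 5 to 8 and 9 to 13. The groups 5 to 8 band is 1.47 and 1.67 high in wild-type and 20.3 and 23.3 in mutant libraries, while the groups 9 to 13 band is widest in wild-type replicate 2 and mutant replicate 2.

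The low-count limit, which asks for enough reads in at least 2 libraries, kept 27 members for the test. The other 12 were left out by it (Hoxa6, Hoxa7, Hoxa13, Hoxb13, Hoxc9, Hoxc10, Hoxc11, Hoxc12, Hoxc13, Hoxd11, Hoxd12 and Hoxd13). Of the 27, 12 members were over it in both wild-type libraries, and Hoxa5, Hoxb9, Hoxc6 and Hoxc8 were over it in both mutant libraries but in no wild-type library. Hoxa5, Hoxb9 and Hoxc6 thus entered because they were high in mutants, while Hoxc8 was also over it in both heterozygous libraries. Fold changes and p-values below are from edgeR's quasi-likelihood test on counts, with Benjamini-Hochberg adjustment over 15187 genes and a threshold of 0.05. In mutant against wild-type heads, 10 of 27 tested Hox genes rose and none fell; of all tested genes 30.6% passed, with 17.1% higher and 13.6% lower. Among the members that rose were Hoxa5, Hoxb1, Hoxb2, Hoxb4, Hoxb5, Hoxb6, Hoxb8, Hoxb9 and Hoxd1. The authors' deposited table calls 16 of the 39 higher and 1 lower, where 8.74% of its genes are higher and 5.56% lower at a false discovery rate under 0.05. By cluster, 7 of 9 tested HoxB genes rose, 2 of 8 in HoxA, 1 of 6 in HoxD and 0 of 4 in HoxC. In HoxC, 2 had an unadjusted p under 0.05 and DESeq2 called 1, against 6654 and 5074 of all 15187 tested genes. Both mutant libraries lay above both wild-type libraries for all 4 HoxC genes, with a median log2 fold change of 2.57. These 4 had only 50 to 330 reads each over all libraries. By position, 5 of 12 anterior and 5 of 15 posterior genes rose. The median log2 fold change over the 27 was 2.01 against -0.02 over all tested genes. Both mutant libraries lay above both wild-type libraries for 17 of the 27 members, which 34.1% of all tested genes did, and below them for Hoxa2 alone, which 36.9% did.

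Without mutant replicate 2 the count of 10 was 6, the lowest when any single library was left out. Hoxb1, Hoxb4, Hoxb5, Hoxb6, Hoxb8 and Hoxd1 passed under every alternative but the use of the files as attached, under which 0 Hox genes passed (5 at an unadjusted p under 0.05).

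**Figure D3:**
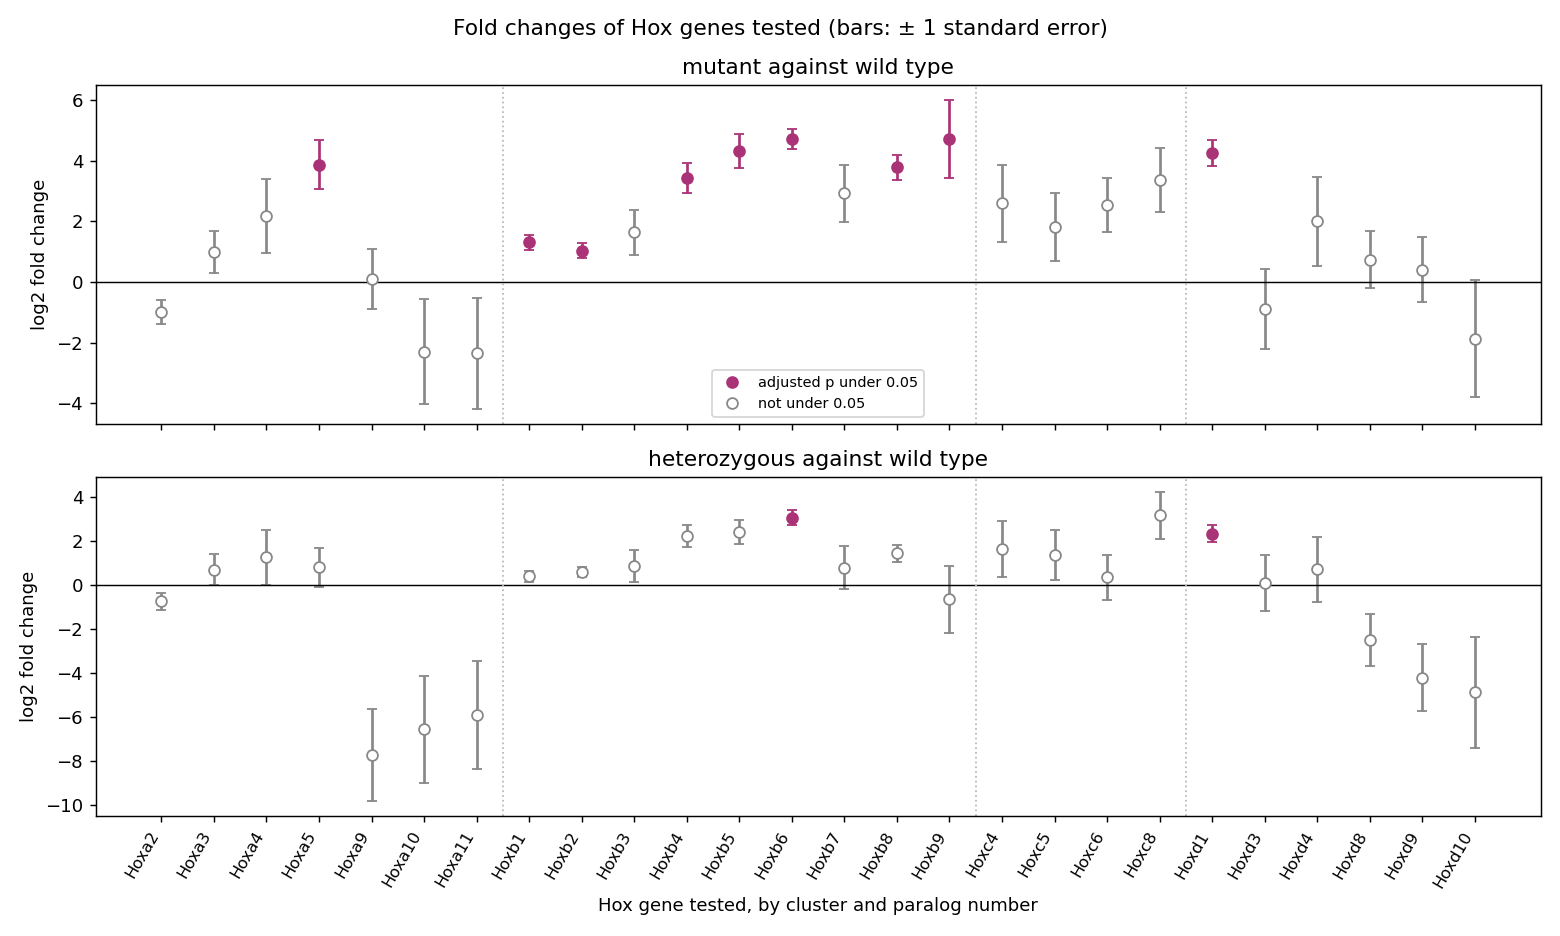
Fitted log2 fold change of tested Hox genes in mutant (top) and heterozygous (bottom) against wild-type heads, by cluster and paralog number, with bars of 1 standard error and filled points at an adjusted p under 0.05. The filled points in the top panel are all above 0 and 7 are HoxB genes; the lower panel has 2, and its value for Hoxa9 rests on 0 heterozygous reads and is no bound.

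Paralog group 1 holds the Hox genes that act earliest in the hindbrain, where Hoxb1 acts in the segments around rhombomere 4. Hoxb1 was at 7.82 and 7.35 RPKM in wild-type, 8.51 and 11.4 in heterozygous and 14.7 and 22.8 in mutant libraries. The wild-type pair lay close together and both mutants were above all other libraries. Hoxb1 rose 2.48-fold in mutants (log2 1.31, SE 0.24, adjusted p = 0.012). Hoxd1 was at 0.391 and 0.184 RPKM in wild-type, 1.65 and 1.29 in heterozygous and 4.49 and 6.64 in mutant libraries. The 3 genotypes formed separate steps, and Hoxd1 rose 19.1-fold in mutants (log2 4.26, SE 0.42, adjusted p = 0.00207).

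Group 2, Hoxa2 and Hoxb2, has the furthest forward limits of all Hox genes, at rhombomeres 2 and 3, and Hoxa2 sets the identity of the second pharyngeal arch. The values of this pair lay on opposite sides of wild type in mutants. Hoxb2 was at 14.2 and 8.41 RPKM in wild-type, 16.2 and 18.2 in heterozygous and 21.4 and 24.8 in mutant libraries. It rose 2.05-fold in mutants (log2 1.04, SE 0.24, adjusted p = 0.0258), the smallest rise of the 10, and did not pass without either mutant or either heterozygous library. Hoxa2 was at 9.65 and 7.43 RPKM in wild-type, 3.22 and 7.05 in heterozygous and 3.47 and 5.10 in mutant libraries. It was the only tested member with all 4 libraries carrying the allele below both wild-type libraries. Its mutant log2 fold change was -0.99 (SE 0.39, adjusted p = 0.109), which did not pass. DESeq2 gave an adjusted p of 0.0499 for Hoxa2, with a log2 fold change of -0.98. Hoxa2 is also the 1 member called lower in the authors' deposited table, at a log2 fold change of -1 and a false discovery rate of 0.0478. With only the 2 groups compared in the edgeR fit, 1 Hox gene was called lower.

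Group 3, which marks the posterior hindbrain and the third pharyngeal arch, varied widely within genotypes. Hoxa3 was at 2.55 and 0.683 RPKM in wild-type, 1.71 and 3.51 in heterozygous and 2.09 and 4.35 in mutant libraries. Hoxb3 was at 2.80 and 0.613, then 2.0 and 4.26, then 3.67 and 6.95. Hoxd3 was at 9.76 and 0.903, then 1.67 and 9.69, then 0.975 and 4.82. Wild-type replicate 1, heterozygous replicate 2 and mutant replicate 2 were the higher library of their genotype for all 3 genes. The mutant log2 fold changes were 0.99 for Hoxa3 (SE 0.70, adjusted p = 0.324), 1.64 for Hoxb3 (SE 0.74, adjusted p = 0.148) and -0.89 for Hoxd3 (SE 1.32, adjusted p = 0.644). None of the 3 passed, and the sign of the Hoxd3 value turned to 1.69 without wild-type replicate 1.

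Group 4, whose front limits lie in the posterior hindbrain, had the same higher library within each genotype for all 4 of its genes. Hoxa4 was at 0.270 and 0 RPKM in wild-type, 0.169 and 0.504 in heterozygous and 0.381 and 0.891 in mutant libraries. Hoxc4 was at 0.490 and 0.0144, then 0.456 and 1.15, then 0.60 and 2.54. Hoxd4 was at 1.06 and 0.167, then 0.189 and 1.83, then 0.424 and 4.58. In each of them wild-type replicate 1 exceeded wild-type replicate 2 and the second heterozygous and mutant libraries exceeded the first. The mutant log2 fold changes of 2.17 for Hoxa4 (SE 1.22, adjusted p = 0.227), 2.60 for Hoxc4 (SE 1.27, adjusted p = 0.172) and 2.01 for Hoxd4 (SE 1.47, adjusted p = 0.344) did not pass. Hoxd4 shares exon bases with Hoxd3, and its value was -0.54 without mutant replicate 2. Hoxb4 had the same order within genotypes, but its genotypes did not overlap. It was at 0.605 and 0.211 RPKM in wild-type, 1.57 and 2.30 in heterozygous and 3.65 and 5.23 in mutant libraries, and rose 10.8-fold (log2 3.43, SE 0.51, adjusted p = 0.00711).

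**Figure D4:**
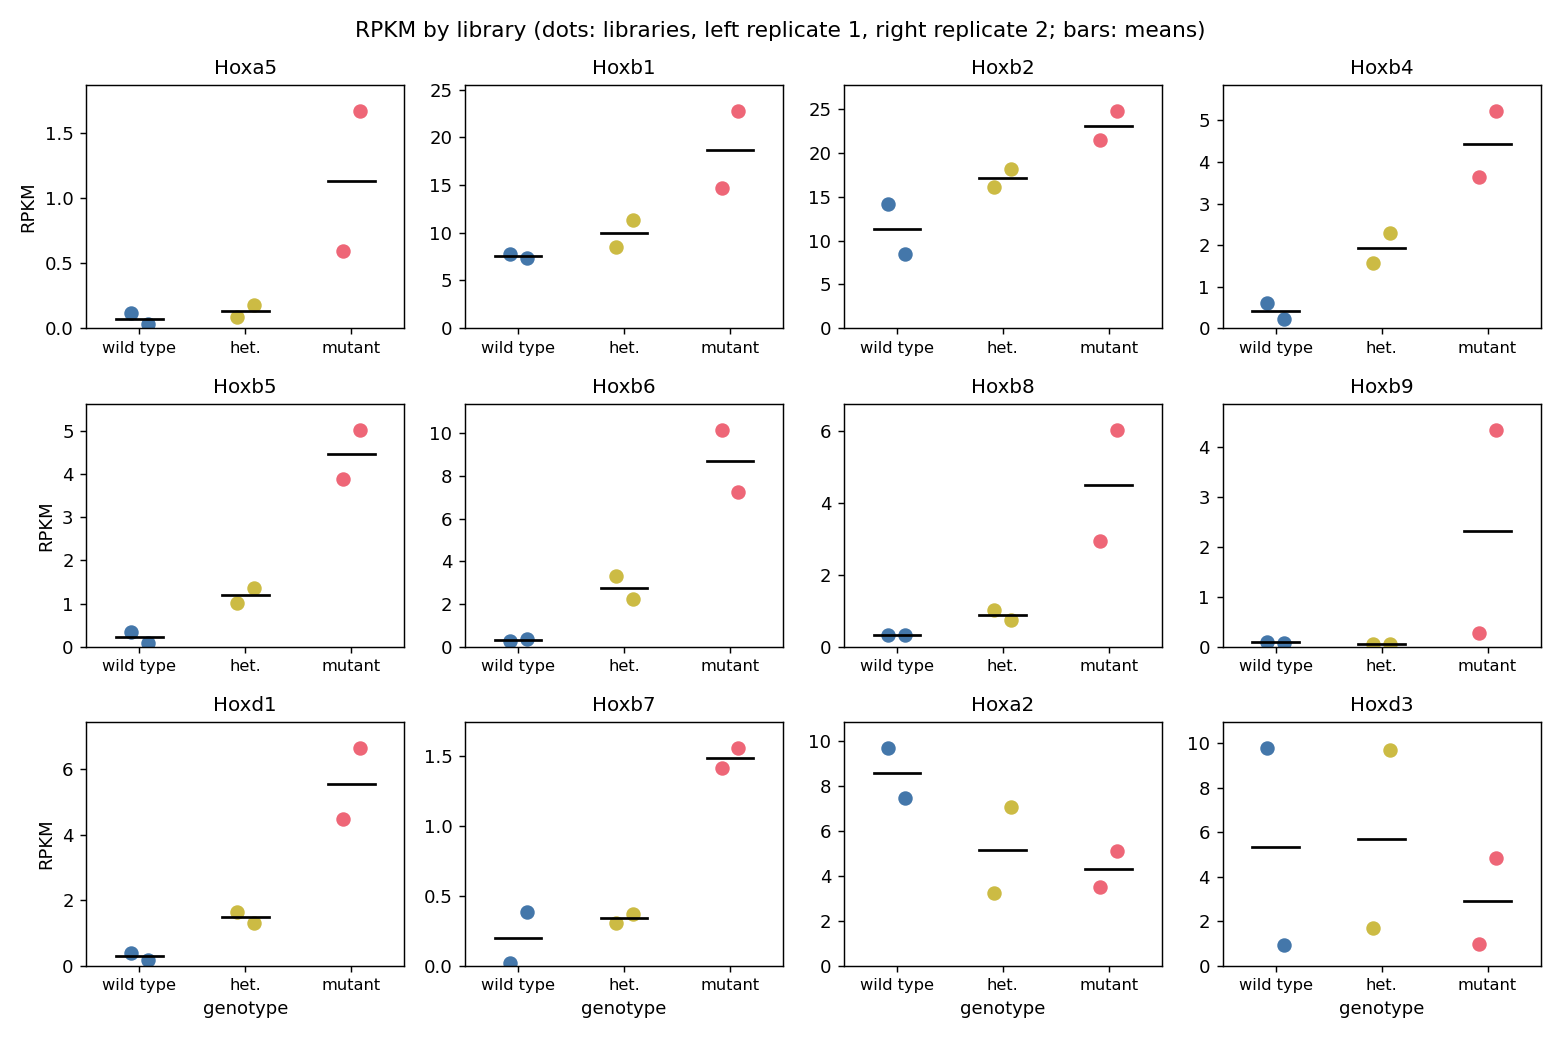
RPKM of 12 Hox genes in each library (dots, replicate 1 on the left and replicate 2 on the right of each genotype) with the mean of the 2 libraries as a bar; each panel has its own axis from 0. Hoxb1, Hoxb2, Hoxb4, Hoxb5, Hoxb6, Hoxb8 and Hoxd1 form 3 separate steps. Hoxd3 spans 0.903 to 9.76 within wild type, and Hoxb9 is above 1 in mutant replicate 2 alone.

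Groups 5 to 8, the trunk Hox genes that are normally active behind the head, were low in wild-type heads. Hoxb6 was at 0.294 and 0.366 RPKM in wild-type, 3.32 and 2.23 in heterozygous and 10.2 and 7.24 in mutant libraries. In reads this was 16 and 17, then 136 and 88, then 508 and 281, with no overlap. Hoxb6 rose 26.4-fold in mutants (log2 4.72, SE 0.33, adjusted p = 0.000831), with the smallest p-value among the Hox genes. Hoxb5 was at 0.346 and 0.0901 RPKM in wild-type, 1.02 and 1.36 in heterozygous and 3.89 and 5.03 in mutant libraries, and rose 20.0-fold (log2 4.32, SE 0.57, adjusted p = 0.00497). Hoxb8 was at 0.321 and 0.334, then 1.01 and 0.759, then 2.94 and 6.04, and rose 13.7-fold (log2 3.78, SE 0.41, adjusted p = 0.00277). These 3 HoxB genes had every heterozygous library between the wild-type and the mutant values, as had Hoxb1, Hoxb2, Hoxb4 and Hoxd1.

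Hoxb7, which lies between Hoxb6 and Hoxb8, was at 0.0191 and 0.381 RPKM in wild-type, 0.305 and 0.369 in heterozygous and 1.42 and 1.56 in mutant libraries. Its mutants were the 2 highest libraries and its wild-type libraries stood far apart, at 1 and 17 reads. The log2 fold change of 2.92 did not pass (SE 0.94, adjusted p = 0.0634). Hoxa5, named here because it passed, was at 0.116 and 0.0303 RPKM in wild-type, 0.0860 and 0.178 in heterozygous and 0.592 and 1.67 in mutant libraries. Heterozygotes overlapped with wild type, and Hoxa5 rose 14.7-fold in mutants (log2 3.87, SE 0.81, adjusted p = 0.0185), a call that was lost without wild-type replicate 2 or without mutant replicate 2. The other tested members of groups 5 to 8 had at most 0.598 RPKM in any library. Hoxc8 had 8 and 0 wild-type, 18 and 39 heterozygous and 53 and 22 mutant reads (log2 3.37, adjusted p = 0.0584), Hoxc6 had 6 and 1, 1 and 6, and 19 and 17 (log2 2.54, adjusted p = 0.0762), and neither passed. Hoxc5 (log2 1.83, adjusted p = 0.261) and Hoxd8 (log2 0.74, adjusted p = 0.587) did not pass. Untested Hoxa6 and Hoxa7 had 2 and 15 reads over all libraries.

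Groups 9 to 13 are the abdominal, limb and tail members, and adult uterus and decidua express Hoxa10 and Hoxa11. Hoxb9 was at 0.0899 and 0.0844 RPKM in wild-type, 0.0478 and 0.0620 in heterozygous and 0.284 and 4.35 in mutant libraries. Its level in mutants came mainly from replicate 2, with 345 reads against 29 in replicate 1. The fitted 26.1-fold rise (log2 4.71, SE 1.28, adjusted p = 0.0397) became a log2 fold change of 1.69 with an adjusted p of 0.109 without mutant replicate 2, and the call was also lost without either wild-type or either heterozygous library.

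Hoxa10 was at 0.0379 and 3.83 RPKM in wild-type, 0.0252 and 0.0131 in heterozygous and 0.0825 and 0.717 in mutant libraries. Hoxa11 was at 0.0106 and 3.62, then 0.0282 and 0.0293, then 0.0809 and 0.64. Both were highest in wild-type replicate 2 and next in mutant replicate 2, and at under 0.1 RPKM in the other 4 libraries. Neither passed (log2 -2.29, SE 1.73, adjusted p = 0.357 for Hoxa10; log2 -2.35, SE 1.83, adjusted p = 0.372 for Hoxa11), and the values turned to 3.33 and 4.86 without wild-type replicate 2. Hoxd10 had 0 and 110 wild-type, 1 and 2 heterozygous and 1 and 25 mutant reads, and Hoxd11, which was not tested, had 2 and 63, 1 and 0, and 2 and 8. Hoxa9 had 7 and 48, 0 and 0, and 21 and 32 reads, and Hoxd9 had 7 and 63, 2 and 1, and 21 and 60. The mutant log2 fold changes of Hoxa9 (0.11, adjusted p = 0.945), Hoxd9 (0.41, adjusted p = 0.80) and Hoxd10 (-1.86, adjusted p = 0.499) did not pass.

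The same 2 libraries held the most reads of genes of the decidua, the maternal tissue around the embryo. A list of 13 decidua and uterus genes, added after the values were seen, summed to 31.2 and 508 CPM in wild-type, 79.1 and 91.6 in heterozygous and 125 and 239 in mutant libraries. None of the 13 was at 0 over all libraries, and Hand2 is also on the lateral plate list. In mutant against wild-type heads 0 of 13 passed by edgeR's quasi-likelihood test, 0 at an unadjusted p under 0.05 and 0 by DESeq2. In heterozygous against wild-type heads these counts were 0, 4 and 1, and in mutant against heterozygous heads 0, 0 and 0. Over all 15187 tested genes they were 4654, 6654 and 5074 in mutant against wild-type heads. They were 997, 3598 and 1890 in heterozygous against wild-type and 66, 3228 and 1313 in mutant against heterozygous heads. The 4 and 1 of the list are near these shares and show nothing about it. Prl8a2, a prolactin-family gene of the decidua named after its values were seen, had 148 and 9885 wild-type, 32 and 162 heterozygous and 242 and 1938 mutant reads. It had the most reads of the list in wild-type replicate 2, and other members ordered the libraries differently. Gzmc, Gzmd, Gzme, Gzmf and Gzmg were higher in mutant replicate 2 than in wild-type replicate 2. Cryab was higher in mutant replicate 1 than in mutant replicate 2, and Hand2 was highest in both mutant libraries. Hoxa11os, the antisense neighbour of Hoxa11 and the single tested noncoding gene of the clusters of 10 in the files, had 1 and 75, 0 and 0, and 6 and 29 reads. It did not pass (log2 -0.92, adjusted p = 0.711). The part of decidua in the levels of groups 9 to 13 was not tested. Hoxb9 stood outside this pattern, with 8 reads in wild-type replicate 2.

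**Figure D5:**
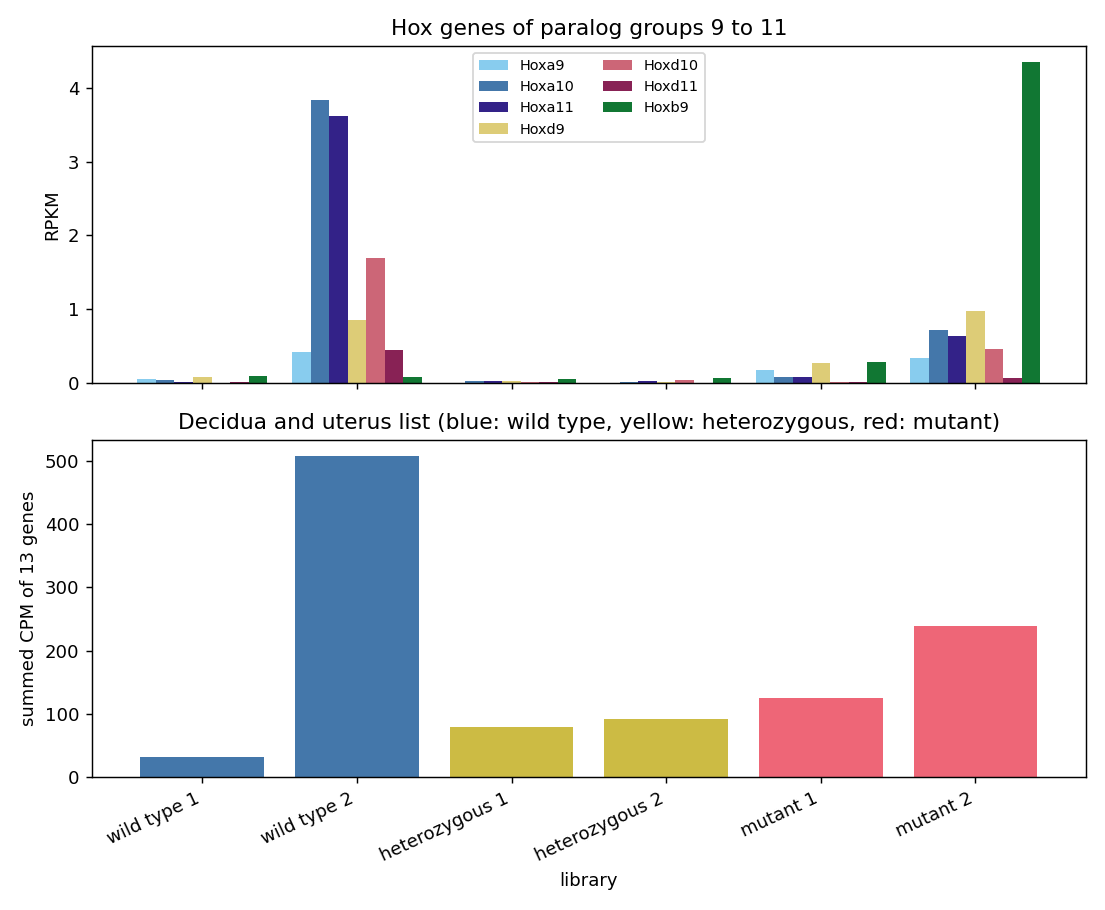
RPKM of 7 Hox genes of groups 9 to 11 in each library (top) and summed CPM of 13 decidua and uterus genes in the same libraries (bottom), with both axes from 0. Wild-type replicate 2 and mutant replicate 2 are the 2 highest libraries for Hoxa10, Hoxa11, Hoxd9, Hoxd10 and Hoxd11 and for the list sum, whereas Hoxb9 is high in mutant replicate 2 only.

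The remaining members were close to 0. In the mutant libraries Hoxa13 had 5 and 3 reads and Hoxc13 had 5 and 4, against 0 in wild type. This is 2.92-fold and 3.29-fold higher if 3 reads over the wild-type group are allowed. These ratios take the few mutant reads as exact and are no firm lower limits. Hoxc9 had 0 wild-type, 0 and 6 heterozygous and 10 and 0 mutant reads, so that its mutant reads came from replicate 1 alone. Hoxd13 had 0 and 3 wild-type, 5 and 3 heterozygous and 7 and 8 mutant reads. Hoxc10 had 2 reads in all, both in mutant replicate 1. None of these was tested.

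In heterozygous against wild-type heads, 2 of 27 tested Hox genes rose and none fell; of all tested genes 6.56% passed, with 6.03% higher and 0.533% lower. Both heterozygous libraries lay above both wild-type libraries for 10 of the 27, which 28.3% of all tested genes did, and below them for 6, which 28% did. The 2 were Hoxb6, 8.39-fold (log2 3.07, SE 0.32, adjusted p = 0.00699), and Hoxd1, 5.05-fold (log2 2.34, SE 0.40, adjusted p = 0.0303). The Hoxd1 call was lost on leaving out any library except wild-type replicate 1, at log2 fold changes of 1.91 to 2.5, and it was kept without that one at 2.99. At an unadjusted p under 0.05 there were 11 of the 27, against 3598 of all 15187 tested genes. Hoxb4 (log2 2.23, SE 0.50, adjusted p = 0.0606), Hoxb5 (log2 2.42, SE 0.55, adjusted p = 0.0628) and Hoxb8 (log2 1.44, SE 0.39, adjusted p = 0.0993) had both heterozygous libraries above both wild-type libraries but did not pass. Hoxb1 had a log2 fold change of 0.39 (SE 0.24, adjusted p = 0.366) and Hoxb2 of 0.60 (SE 0.24, adjusted p = 0.208). Hoxa2 (log2 -0.73, adjusted p = 0.319) did not pass either. Hoxa9 had 0 heterozygous reads against 55 in wild type, of which 48 came from wild-type replicate 2. This is 14.8-fold lower if 3 heterozygous reads are allowed and the wild-type reads are taken as exact. The count of 2 was 1 without either heterozygous library, without wild-type replicate 2 or without mutant replicate 2, and 9 without wild-type replicate 1, of which 3 were lower. Scaled to the neural progenitor genes, 7 rose and 1 fell.

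Some lists of other tissues rose in heterozygotes too, where 6.03% of all tested genes rose and 0.533% fell. Of 14 yolk sac endoderm genes 13 rose in heterozygotes, as did 10 of 14 tested heart genes, with heart sums of 1814 and 2890 CPM. Extraembryonic mesoderm genes rose in 2 of 6 cases (427 and 439 CPM) and lateral plate genes in 2 of 6 (142 and 138 CPM). Of 12 neural progenitor genes 0 passed by edgeR's quasi-likelihood test (3 at an unadjusted p under 0.05 and 1 by DESeq2), with sums of 772 and 894 CPM. Of 12 forebrain and midbrain genes 0 passed (2 at an unadjusted p under 0.05 and 0 by DESeq2), with sums of 276 and 293 CPM. Of 10 tested somite genes 0 passed (2 at an unadjusted p under 0.05 and 1 by DESeq2), and of 7 erythroid genes 0 passed (0 and 0). Over all 15187 tested genes 3598 had an unadjusted p under 0.05 and DESeq2 called 1890. The part of these lists in the heterozygous Hox values was not tested.

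In mutant against heterozygous heads, 0 of 27 tested Hox genes passed by edgeR's quasi-likelihood test, where 0.435% of all tested genes did, 0.0724% higher and 0.362% lower. There were 12 of the 27 Hox genes at an unadjusted p under 0.05, and DESeq2 called 6. Over all 15187 tested genes these counts were 3228 and 1313. The smallest adjusted p-values were those of Hoxb8 (5.07-fold, log2 2.34, SE 0.38, adjusted p = 0.0746), Hoxb6 (3.15-fold, log2 1.66, SE 0.28, adjusted p = 0.0782) and Hoxd1 (3.79-fold, log2 1.92, SE 0.37, adjusted p = 0.0868). Both mutant libraries lay above both heterozygous libraries for 16 of the 27 members, which 26.8% of all tested genes did, and below them for 0, which 27.4% did. The median over the 27 was 1.66 against 0 over all tested genes. The 3 comparisons share libraries in pairs, so their values are not independent of each other.

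The lists of related genes below are to be read against all tested genes, of which 17.1% rose and 13.6% fell in mutants. Among factors that work with Hox proteins on DNA, 4 of 9 rose and 2 fell. Meis1 rose 2.36-fold (log2 1.24, SE 0.24, adjusted p = 0.0146), from 45.1 and 27.8 CPM in wild-type to 75.3 and 97.4 in mutant libraries. Pknox1 (log2 0.47) rose by less, and Pknox2 fell by 0.33, which turned to a log2 value of 0.44 when libraries were scaled to the neural progenitor genes. With it the median gene shifted up by 0.77 in log2, so that this scaling could turn falls but is no check on rises. Of 13 caudal regulators, 5 rose and 2 fell. Cdx2, a direct activator of trunk Hox genes, had CPM values of 0.411 and 0.114 in wild-type, 3.86 and 2.81 in heterozygous and 10.2 and 33.5 in mutant libraries (log2 6.32, SE 0.82, adjusted p = 0.00479). Cdx2 formed 3 steps without overlap, as Hoxb5, Hoxb6 and Hoxb8 did, but so did genes of other lists such as Hand1, Bmp4 and Foxf1. Wnt5a, a tail bud signal, rose 2.02-fold (log2 1.02, SE 0.14, adjusted p = 0.00593). Wnt3a, which maintains the tail bud, fell by 1.93 on the log2 scale (SE 0.40, adjusted p = 0.0181), and Lin28b, an RNA-binding regulator of trunk timing, fell by 0.68 (SE 0.06, adjusted p = 0.00143), or had a log2 value of 0.09 with neural scaling. Cdx1, named after its values were seen, was at 7.58 CPM in mutant replicate 1 and 60.5 in mutant replicate 2, the library that was high for Hoxb9.

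Of 18 genes of the retinoic acid pathway, 7 rose in mutants and 4 fell. Aldh1a2, which makes retinoic acid in trunk mesoderm, rose 7.48-fold (log2 2.90, SE 0.51, adjusted p = 0.011), from 19.8 and 10.7 CPM in wild-type to 66 and 164 in mutant libraries, with 32.1 and 41.7 in heterozygous ones. Dhrs3, a reductase that limits retinaldehyde, rose 7.60-fold (log2 2.93, SE 0.31, adjusted p = 0.00261). Cyp26c1, which breaks retinoic acid down in the head, fell by 2.16 on the log2 scale (SE 0.37, adjusted p = 0.0108). Of 12 hindbrain segment regulators, 4 rose and 4 fell. Egr2, which defines rhombomeres 3 and 5 and activates Hoxa2 and Hoxb2, had CPM values of 31.1 and 24.7 in wild-type, 13.5 and 23.2 in heterozygous and 4.71 and 2.28 in mutant libraries. It fell by 2.98 on the log2 scale (SE 0.41, adjusted p = 0.00561). Fgf3, a rhombomere signal, fell by 2.16 (SE 0.38, adjusted p = 0.0111) and Efnb2, an ephrin ligand, by 1.20 (SE 0.13, adjusted p = 0.00313).

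Of 21 Polycomb and trithorax genes, 3 rose (14.3%) and 4 fell (19%), shares near the 17.1% and 13.6% of all tested genes, so the count shows nothing about the list. Cbx7, a Polycomb subunit that reads the repressive histone mark, rose 4.08-fold (log2 2.03, SE 0.19, adjusted p = 0.00174). Ezh2, the main enzyme writing that mark, fell by 0.37 on the log2 scale (SE 0.04, adjusted p = 0.00284), which turned to 0.40 with neural scaling. Ezh1, its paralog, and Kdm6b, which removes the mark, rose by log2 fold changes of 0.53 and 0.43. Of 5 Evx and ParaHox genes, Evx2, Gsx1 and Gsx2 were left out by the low-count limit and both tested genes rose. Evx1, at the 5′ end of HoxA, rose 2.53-fold (log2 1.34, SE 0.37, adjusted p = 0.0411). Pdx1, a pancreas and gut factor, had 0 wild-type, 35 heterozygous and 76 mutant reads. It thus entered the test only through the libraries where it was high, and its rise is no separate evidence.

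Of 17 tested genes just outside the clusters, 2 rose (11.8%) and 4 fell (23.5%), with a median log2 fold change of 0.01. Together these passed about as often as the 30.6% of all tested genes. Those with the smallest p-values were Atp5g3, a mitochondrial ATP synthase subunit (log2 0.66), the heterochromatin proteins Cbx1 (-0.28) and Cbx5 (-0.26), and Lnp, an endoplasmic reticulum protein beside HoxD (-0.35). With neural scaling the 3 falls turned to log2 values of 0.49, 0.51 and 0.42.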

How the data were processed

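RNA from 6 head libraries (2 a genotype) had been sequenced by the authors, as paired-end stranded polyadenylated RNA libraries per the labels' protocols. Per the submitters' processing notes, the tools were TopHat2 2.0.11, HTSeq 0.6.1p2, edgeR 3.8.6, cutadapt 1.8, Trim Galore 0.4.0, FastQC 0.11.2 and bcl2fastq 2.17, with the build mm10. Which annotation and strand setting served for counting is not given in the sources used. The deposited files hold whole-number read counts per gene, with 5 summary lines that were left out (reads with no unique alignment made up 12.7% to 14.5% of the file totals, reads outside genes 8.93% to 10.5%). The authors' deposited table gives RPKM per library and the authors' log2 fold changes, test scores and p-values, with false discovery rates.

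Counts were analysed with edgeR 4.0.16 in R 4.3.3 (TMM scaling, the filterByExpr limit of 0.304 CPM, 1 fit over 6 libraries, leaving 3 residual degrees of freedom, quasi-likelihood F-test). The common coefficient of variation was 0.182. CPM of single genes are TMM-scaled, and summed CPM of lists use library totals. On simulated counts for mutant against wild type over 15187 genes, 89% of 4-fold and 60% of 2-fold changes were recovered, and 10 of 159 calls were false. The data themselves gave 4654 calls, so the adjustment acted at another level there. These rates are not those of the Hox genes, many of which had few reads. Alternatives were RLE scaling, library totals, scaling to neural genes, no filter, a likelihood ratio test, DESeq2 1.42.0, limma 3.58.1 on log2(RPKM + 0.1) or with voom, a term for Xist level, fewer groups and leaving out libraries.

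Values in every library were given for each tested member of groups 1 to 4 and, in groups 5 to 13, for the tested member with the highest mean RPKM; of other lists, up to 4 genes with the smallest p in mutant against wild type. Results for 1 Hox gene, which counts and sums include, and for some genes of the other lists are not reported here. The members, lists and tests were chosen with earlier results of these data known.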

Additional observations from a re-analysis of the deposited data

How the results depend on the processing

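The low count of 2 libraries a genotype limits every call, and the low-count filter left 12 members untested; with no filter 35 were tested and 11 passed in mutants. The count of Hox genes passing in mutant against wild-type heads was 10. It was 0 with the files as attached and 18 when libraries were scaled to the neural progenitor list, a scaling that shifted the median gene by log2 0.77. Other tools, filters and scalings gave 8 to 13, without the fit with a term for Xist. Leaving out 1 library gave 6 to 13, and leaving out wild-type replicate 2 and mutant replicate 2 together, chosen after seeing the data, gave 9. In heterozygous against wild-type heads the count was 2. It was 0 with the files as attached, 8 with neural scaling, 4 with no filter, 9 with the likelihood ratio test and 8 with DESeq2. With limma on RPKM, limma-voom and only the 2 groups it was 1 each. Leaving out 1 library gave 1 to 9, and the pair together 3. In mutant against heterozygous heads the count was 0. It was 14 with neural scaling, 1 with no filter, 9 with the likelihood ratio test, 6 with DESeq2 and 1 with only the 2 groups, and 0 to 1 on leaving out 1 library. Called values that turned sign did so only with the files as attached: Hoxb2 (-0.11) and Hoxb6 (-0.47) in mutant, and Hoxb6 (-0.92) and Hoxd1 (-0.74) in heterozygous against wild-type heads. That setting exchanges a wild-type and a mutant library; for the other changes the cause was not tested. Hoxa2 stayed below 0 in mutants under all alternatives, at -0.23 with neural scaling. No paired analysis was possible because the labels give no replicate numbers that link libraries of different genotypes.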

Other observations

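Xist, which silences 1 X chromosome in cells with a pair of them, had 46203 reads in wild-type replicate 2, 47887 in mutant replicate 1 and 32299 in mutant replicate 2, and 8 to 11 in the other 3 libraries. Both heterozygous libraries were low and both mutant libraries high for it, so that whatever goes with this level cannot be told apart from genotype between those groups. A term for high Xist in the edgeR fit rests on the difference between the wild-type libraries alone. With it mutants are in effect set against wild-type replicate 2 and heterozygotes against wild-type replicate 1. Its counts are therefore not given, and it does not separate Xist level from genotype.

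The share of summed Hox RPKM from HoxB was 45.9% and 45.2% in wild-type, 50.6% and 51.4% in heterozygous and 64.0% and 51.4% in mutant libraries. The share from HoxD was 19.7% and 11.9%, then 5.47% and 16.3%, then 6.64% and 11.2%, and differed within each genotype. The HoxC share was 0.0818% to 2.72%.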
